A study of Mus musculus with 6 samples.

Results

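Dlk1, Gata2, Gata3, Klf2, Klf3, Twist1, Twist2, Hes1, Foxo1 and Nr2f2 are the 10 genes described here. They can hold adipocyte precursors in an undifferentiated state or repress adipogenesis. They were taken from the array by gene symbol. Each had 1 probe set, so they are 10 of the 34760 probe sets and 10 of the 19937 genes measured. RNA came from freshly dissected inguinal white fat, a depot under the skin, of 5-week-old male mice, with 1 Affymetrix array per mouse. The 3 WT and 3 KO mice were littermates from Atf7 heterozygous parents on a C57BL/6 background. The KO mice lack Atf7, a bZIP transcription factor of the ATF/CREB group, and the labels name no cell type restriction of the deletion. All values below are log2 expression from the deposited table, and a difference is the KO mean minus the WT mean.

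Fat cells form in stages. A precursor first commits to the lineage, and then Cebpb and Cebpd induce Pparg and Cebpa, which switch on the genes of the mature cell. The factors described here can act against that sequence, which need not be their only role. Dlk1 (also Pref-1) is a surface protein of preadipocytes whose cleaved form blocks differentiation. Gata2, Gata3 and Klf2 repress Pparg, and Klf3 represses Cebpa with CtBP corepressors. Hes1 is a repressor induced by Notch. Foxo1 is a forkhead factor that insulin signalling through Akt keeps out of the nucleus. Nr2f2 (also COUP-TFII) is an orphan nuclear receptor that represses Pparg downstream of Wnt. Twist1 and Twist2 are basic helix-loop-helix repressors of mesenchymal cells, and Twist1 is known to restrain the PGC-1 targets of thermogenic fat.

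Because ATF/CREB proteins bind the element TGACGTCA, the start sites of these genes were searched for it and for its first letters TGACG, whose other strand reads CGTCA. RefSeq windows of GRCm38.p6, 250 bases before to 50 after a start site, covered 9 of the 10 genes, all but Hes1, in 10 windows. The whole element was in 0 of the 10 windows and in 1.79% of all 32851 windows. TGACG was in 4 of the 10 windows and in 20.8% of all windows. The 4 stretches are shown on the gene's strand, 5′ to 3′, with the matching letters in capitals.
Dlk1: ggggggggggggTGACGcatgatgtcgtc
Klf2: ctggtttgtTGACGccgtcgccatag
Klf3: gagcggcgccggCGTCAtgtgactgccca
Twist1: ccctcctccccaCGTCAggccaatgacac
They lie at chr12:109452705-109452733 for Dlk1, chr8:72318812-72318837 for Klf2, chr5:64803528-64803556 for Klf3 and chr12:33957563-33957591 for Twist1, all on the plus strand. Counted from the start site, the match began at base -106 in Dlk1, -241 in Klf2, -96 in Twist1 and 20, inside the transcript, in Klf3. In each of these 4 genes the KO and WT values overlapped, as in most genes (groups did not overlap in 13.9% of all genes). A link between a match and the KO difference was not tested. A match is a run of letters, and no binding was measured here.

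The labelled tissue and genotype were checked first. Adipoq, the fat cell hormone, lay between 12.24 and 12.68 and Fabp4, the fatty acid carrier of fat cells, between 12.56 and 12.78, on a scale whose highest value was 14.15. An Atf7 probe set, 10433032, was 6.22, 6.53 and 6.49 in KO and 8.95, 9.20 and 9.07 in WT. The second, 10433034, overlapped (9.10 to 9.42 in KO, 9.34 to 9.52 in WT), and which part of the gene is deleted was not given. Over all probe sets, KO replicate 3 correlated with the other arrays at 0.969 to 0.981, against 0.9835 to 0.99 among those. A pair of arrays stood apart in markers of other cells. KO replicate 3 had a lymphocyte score, the mean of 44 centred T cell and B cell genes, of -2.24, against -0.12 and 0.56 in the other KO arrays and 0.47 to 0.70 in WT. WT replicate 2 had an epithelial score over 13 mammary or skin genes of 1.22, against -0.30 to -0.14 elsewhere, and the highest skeletal muscle score (2.05, with the others between -1.32 and 1.36). Array values have no true zero, so no marker is listed at 0. In bulk tissue, fewer cells of a type and less RNA per cell cannot be told apart.

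The 10 genes did not move as a group. Foxo1 and Gata3 were lower in KO with no overlap between the groups, and Twist2, Hes1 and Gata2 were higher with no overlap. Dlk1, Klf2, Klf3, Twist1 and Nr2f2 overlapped. No gene passed Benjamini-Hochberg adjustment over all 19937 genes in limma, where the smallest adjusted p among the 10 was 0.622 and that of all genes 0.237. Atf7 was represented there by 10433034, its probe set with the higher mean. With all 34760 probe sets fitted, 10433032 had an adjusted p of 0.00658 in limma. At an unadjusted p under 0.05, limma counted 2 of the 10 higher (Twist2 and Hes1), where the share over all genes was 4.99%, and 2 lower (Foxo1 and Gata3), where it was 2.48%. Groups did not overlap, with KO above, in 3 of the 10 genes and in 7.96% of all genes. KO lay below in 2 of the 10 and in 5.97% of all genes. Of the 10 differences 6 were positive, against 53.0% of all genes, and their median was 0.06, against 0.01. Since these genes were chosen with earlier results of the same arrays known, the counts are a description. Without KO replicate 3, Twist2 and Foxo1 remained under 0.05, and the shares over all genes were 3.10% higher and 1.90% lower.

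**Figure D1:**
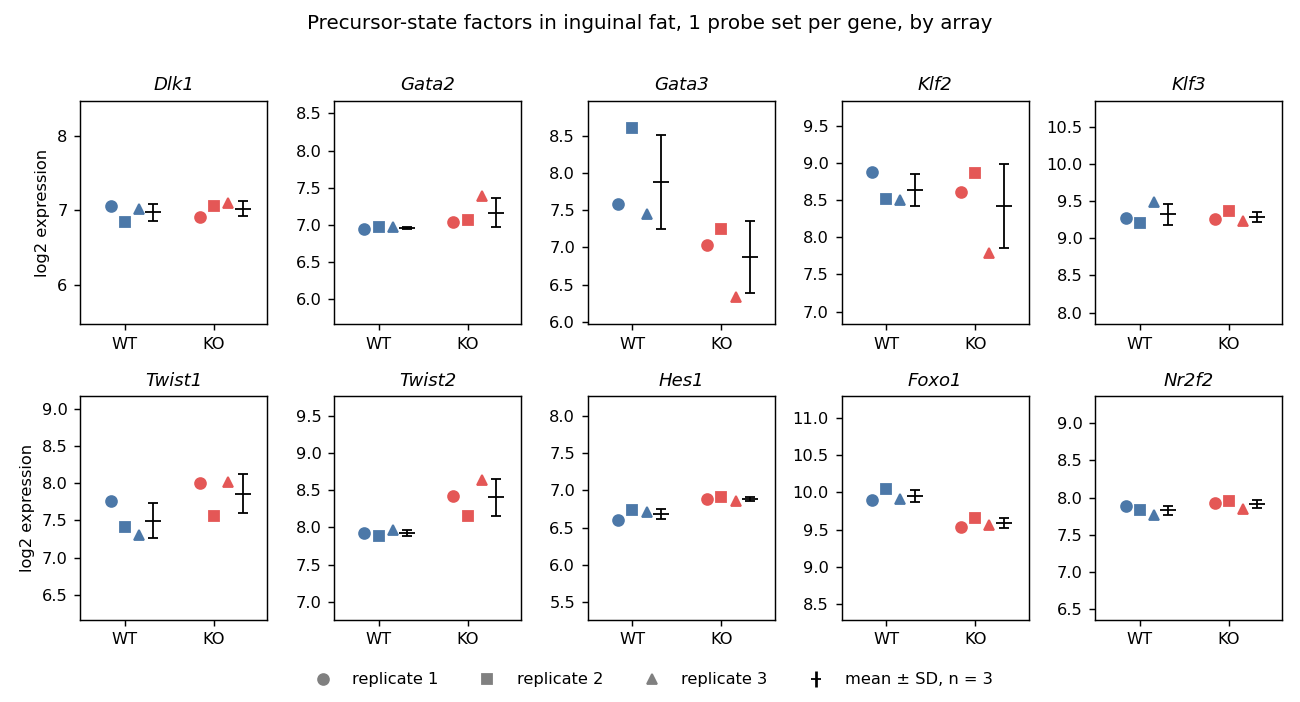
Log2 expression of the 10 genes on each array, WT in blue and KO in red, with a marker shape per replicate number, and the group mean ± SD (n = 3) in black. Each panel spans the same number of log2 units, so distances compare between panels. Foxo1 has the widest gap between the groups (0.24), and Gata3 and Klf2 spread widely within a group.

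Foxo1, which delays fat cell differentiation and drives genes of lipid release and fasting, had the smallest p of the 10. Its values were 9.54, 9.66 and 9.57 in KO, against 9.90, 10.04 and 9.92 in WT. The groups were fully apart, with KO below, and the gap of 0.24 was the widest among the 5 genes without overlap. The means were 9.59 ± 0.06 in KO and 9.95 ± 0.08 in WT (SD, n = 3). The difference was -0.36 (SE 0.09, 95% interval -0.57 to -0.16), which is 1.29-fold lower, with an unadjusted p of 0.00434 and an adjusted p of 0.622 in limma. It lay between -0.40 and -0.32 without each array in turn, with unadjusted p-values of 0.00636 to 0.0203. Adjusted for the lymphocyte score it was -0.34, and it was -0.35 without KO replicate 3. Foxo1 is also expressed in lymphocytes, and the part of those cells in its level was not tested further.

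Genes that Foxo1 is known to induce showed no common direction. Of 25 listed, Klf2 among them, 23 were measured, 12 positive and 11 negative, with a median of 0.01 (53.0% of all genes were positive). With an unadjusted p under 0.05 in limma, 1 was higher and 1 lower, against 4.99% and 2.48% of all genes. The largest positive difference was in Pdk4, the kinase that shuts off pyruvate dehydrogenase in fasting. It was 12.13, 11.70 and 12.46 in KO and 11.33, 9.82 and 11.03 in WT, a difference of 1.37 (SE 0.39), with no overlap. That difference lay between 0.92 and 1.67 without each array in turn. Sesn3, a stress-induced regulator of mTORC1 and Akt, differed by -0.33 (SE 0.14), and by -0.21 without KO replicate 3. Its groups were only just apart, with 9.02 the highest KO value and 9.03 the lowest WT value. The list includes Il7r, which T cells carry and whose difference was -1.90, and -0.67 without KO replicate 3. The lymphocyte score was below the WT range in KO replicates 1 and 3 and inside it in KO replicate 2, and its part in the list was not tested. Akt2, the insulin-activated kinase that inhibits Foxo1 in fat cells, was higher by 0.31 (SE 0.12), at 11.58, 11.42 and 11.77 in KO and 11.37, 11.26 and 11.20 in WT. The Akt2 difference was 0.22 without KO replicate 3 and 0.17 after adjustment for the lymphocyte score. Ywhaz, a 14-3-3 protein of the kind that retains phosphorylated Foxo1 in the cytoplasm, differed by -0.34 (SE 0.13), and by -0.22 without KO replicate 3. Its groups were also only just apart (highest KO value 10.93, lowest WT value 10.96). None of these genes passed over all genes (adjusted p 0.622 each in limma).

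Twist2 and Twist1 were both positive. Twist2 was 8.43, 8.15 and 8.64 in KO and 7.92, 7.88 and 7.96 in WT. The WT arrays lay close together, and the lowest KO array was 0.19 above them. Twist2 averaged 8.40 ± 0.24 in KO against 7.92 ± 0.04 in WT (SD, n = 3). The difference was 0.48 (SE 0.13, 95% interval 0.17 to 0.79), or 1.40-fold, with an unadjusted p of 0.00808 and an adjusted p of 0.622 in limma. It was 0.36 without KO replicate 3, 0.61 without KO replicate 2 and 0.30 after adjustment for the lymphocyte score, and its unadjusted p stayed at or below 0.0299 in these. Within KO, the array with the lowest lymphocyte score (replicate 3) had the highest Twist2, and the one with the highest score (replicate 2) the lowest. Within WT the order was opposite, with both highest in replicate 3 and both lowest in replicate 2. The part of lymphocytes in the Twist2 difference was not tested further.

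Twist1 was 8.005, 7.56 and 8.02 in KO and 7.77, 7.41 and 7.31 in WT. KO replicate 2 fell inside the WT range, so the groups overlapped. The difference was 0.36 (SE 0.17, 95% interval -0.04 to 0.77), with an unadjusted p of 0.0713 in limma. It was 0.52 without KO replicate 2 (unadjusted p 0.0132 in limma) and 0.50 without WT replicate 1 (0.0270). It was 0.27 without WT replicate 3 and 0.21 after adjustment for the lymphocyte score. The probe sequences were not used here, so cross-hybridisation between the Twist genes was not tested.

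Hes1 had the tightest KO values of the 10. It was 6.88, 6.92 and 6.86 in KO and 6.61, 6.74 and 6.71 in WT, with a gap of 0.12 between the groups. The difference was 0.20 (SE 0.08, 95% interval 0.00 to 0.40), or 1.15-fold, with an unadjusted p of 0.0482 in limma. That p was above 0.05 without each array in turn (0.0573 to 0.158), although the difference stayed between 0.16 and 0.23. Adjusted for the lymphocyte score it was 0.22.

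Hes1 is a main target of Notch, in which a ligand on one cell leads to cleavage of the receptor on its neighbour and transcription through Rbpj. Of 29 measured Notch pathway genes, 18 were positive and 11 negative, with a median of 0.05 (53.0% of all genes were positive). With an unadjusted p under 0.05 in limma, 2 were higher and 0 lower, against 4.99% and 2.48% of all genes. The 2 higher genes were the ligand Jag1 and the Hes-related repressor Heyl. Jag1 was 8.72, 8.73 and 8.94 in KO and 8.41, 8.31 and 8.26 in WT, a difference of 0.47 (SE 0.10) with an unadjusted p of 0.00214 in limma. The groups did not overlap, with a smaller p than that of any of the 10 genes. Heyl was 7.53, 7.47 and 8.27 in KO and 7.26, 6.89 and 7.08 in WT, a difference of 0.68 (SE 0.22), with KO replicate 3 well above the other arrays. It was 0.42 without that array and 0.33 after adjustment for the lymphocyte score. Heyl also marks mural cells, the pericytes and smooth muscle of vessels. Of the 11 measured mural genes that are not also on the Notch list, 10 were positive (53.0% of all genes). Without KO replicate 3, 7 were positive (48.5% of all genes). Their mean level was -0.14 to 0.38 in KO and -0.20 to -0.06 in WT, so the list's levels overlapped. With an unadjusted p under 0.05 in limma, 4 of all 13 mural genes were higher and 0 lower. The shares over all genes were 4.99% and 2.48%. The 4 were Heyl, Cspg4 (0.60), Rgs5 (0.55) and Myh11 (0.34). KO lay above WT in 5 of the 13 (7.96% of all genes). Without KO replicate 3, 4 were higher (3.10% of all genes). The part of mural cells in Heyl was not tested. Groups were apart with KO above in 4 of the 29 genes (7.96% of all genes) and with KO below in 2 (5.97% of all genes). The latter were Dtx1, a ubiquitin ligase of the pathway, and the protease Adam10, which differed by -0.18 (SE 0.09). Dtx1 differed by -0.63 (SE 0.29) and by -0.28 without KO replicate 3. It was only just apart (highest KO value 8.36, lowest WT value 8.39). The receptor Notch3 overlapped between groups (difference 0.15). Jag1 and Heyl had an adjusted p of 0.622 in limma.

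Gata3 had the widest spread and the largest difference of the 10. It was 7.03, 7.25 and 6.33 in KO and 7.58, 8.60 and 7.45 in WT. WT replicate 2 was a full unit above the other WT arrays, KO replicate 3 was the lowest, and the gap between the groups was 0.21. Gata3 averaged 6.87 ± 0.48 in KO against 7.88 ± 0.63 in WT (SD, n = 3). The difference was -1.01 (SE 0.35, 95% interval -1.84 to -0.18), or 2.01-fold lower, with an unadjusted p of 0.0234 and an adjusted p of 0.622 in limma. It was -0.65 without WT replicate 2 (unadjusted p 0.0531 in limma), -0.74 without KO replicate 3 (0.0578) and -0.38 without both (0.0255).

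Gata3 also specifies T helper cells and the luminal epithelium of the mammary gland, and the levels of T cell and epithelial marker lists differed among these arrays. Their part in the Gata3 difference was not tested beyond the values given here. All 23 measured T cell genes were negative, with a median of -1.20 (53.0% of all genes were positive). With an unadjusted p under 0.05 in limma, 5 of them were lower, against 2.48% of all genes. Without KO replicate 3 all 23 were still negative, with a median of -0.43. The T cell score was -1.97 to 0.51 in KO and 0.47 to 0.67 in WT, and lowest in KO replicate 3, where Gata3 was lowest too. Of 13 epithelial genes 12 were negative (53.0% of all genes were positive), and 0 had an unadjusted p under 0.05 in limma. WT replicate 2 weighed heavily in that count. The list's level was -0.27 and -0.23 in WT replicates 1 and 3, inside the KO range of -0.30 to -0.145. Without WT replicate 2, Epcam differed by -0.19 in place of -0.73 and Krt5 by -0.18 in place of -0.58. Epcam, an epithelial adhesion protein, was 7.06 in WT replicate 2 and between 5.18 and 5.52 on the other 5 arrays, and Krt5, a basal keratin, was 6.43 there and 4.79 to 5.28 elsewhere. WT replicate 2 was also the array with the highest Gata3. Adjusted for the lymphocyte score, the Gata3 difference was -0.66 (unadjusted p 0.122 in limma), and with the epithelial score, a choice made after seeing the data, -0.68 (0.0597).

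**Figure D2:**
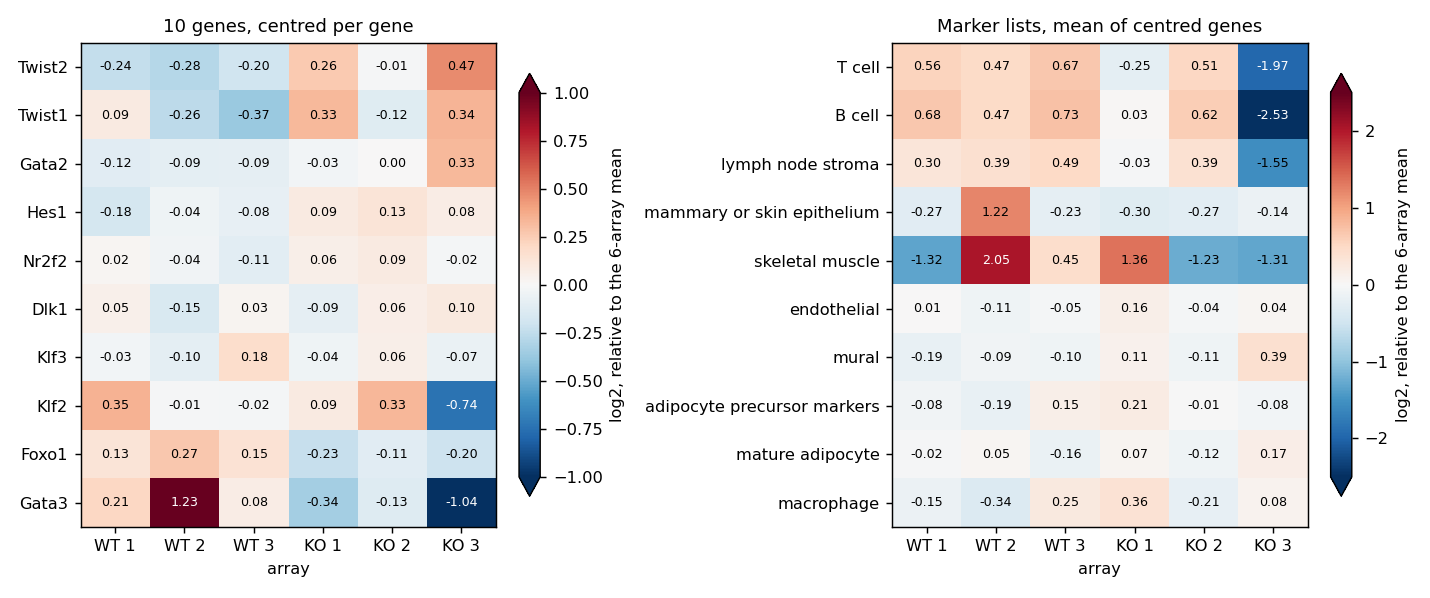
Left, each of the 10 genes on each array after subtracting its mean over the 6 arrays (log2). Right, the mean of the same centred values over the genes of each marker list, with the described genes left out. Gata3 is highest in WT replicate 2 (1.23), where the epithelial and muscle lists are highest, and Gata3 and Klf2 are lowest in KO replicate 3 (-1.04 and -0.74), where the lymphocyte lists are lowest. The colour scales of the panels differ.

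Gata2, the GATA factor of preadipocytes that also serves endothelial, mast and blood progenitor cells, went the other way by a small amount. It was 7.03, 7.07 and 7.39 in KO and 6.95, 6.97 and 6.97 in WT. The groups did not overlap, but the gap was 0.07, and KO replicate 3 made most of the difference. That difference was 0.20 (SE 0.12, 95% interval -0.07 to 0.47), with an unadjusted p of 0.1215 in limma, and it was 0.09 without KO replicate 3 and 0.05 after adjustment for the lymphocyte score. The GATA partner Zfpm2 differed by 0.24 and Zfpm1 by -0.17, both with overlapping groups.

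Klf2, which represses Pparg in preadipocytes and maintains quiescent endothelium and naive T cells, followed KO replicate 3. It was 8.61, 8.86 and 7.79 in KO and 8.88, 8.52 and 8.50 in WT. The first 2 KO arrays lay inside the WT range, and KO replicate 3 lay 0.84 below the WT mean. The difference was -0.21 (SE 0.27, 95% interval -0.85 to 0.43). It turned to 0.10 without KO replicate 3 and to 0.24 after adjustment for the lymphocyte score. Of 25 endothelial genes 19 were positive with a median of 0.15 (53.0% of all genes were positive). The endothelial list's level in KO replicate 3 was 0.04, inside the range of the other arrays (-0.11 to 0.16). The part of endothelial cells and T cells in the Klf2 difference was not tested.

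Klf3, the repressor of Cebpa, hardly varied. It was 9.26, 9.37 and 9.24 in KO and 9.28, 9.21 and 9.48 in WT. The KO values lay within the WT range, and the difference was -0.03 (SE 0.10, 95% interval -0.28 to 0.21). Its sign turned without WT replicate 3 (0.05) and after adjustment for the lymphocyte score (0.02).

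Dlk1, the preadipocyte surface inhibitor, was 6.90, 7.06 and 7.09 in KO and 7.05, 6.84 and 7.02 in WT. The groups overlapped almost completely. The difference was 0.05 (SE 0.10, 95% interval -0.19 to 0.29), and it was -0.02 without WT replicate 2. Dlk2, its paralog, differed by 0.02. Nr2f2, which besides repressing Pparg marks venous and lymphatic endothelium, was 7.93, 7.96 and 7.85 in KO and 7.89, 7.83 and 7.76 in WT. The KO arrays tended to the upper part of a narrow range, with overlap. The difference was 0.08 (SE 0.09, 95% interval -0.12 to 0.29) and stayed positive without each array in turn (0.05 to 0.11). For Dlk1, Klf3 and Nr2f2 the intervals lie between -0.28 and 0.29.

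**Figure D3:**
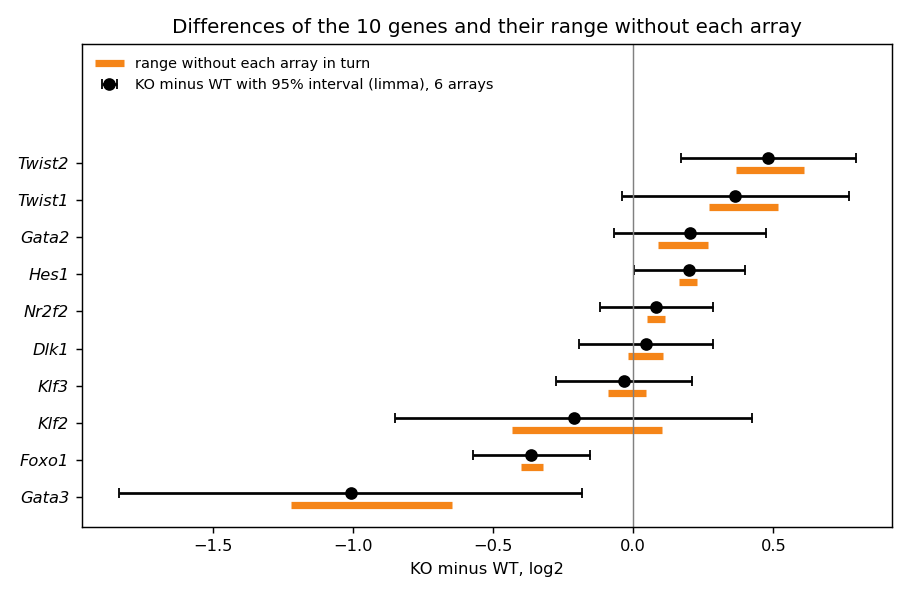
KO minus WT (log2) for the 10 genes with limma's 95% interval in black, and in orange the range of the difference when each array is left out in turn. The Foxo1, Twist2, Gata3 and Hes1 intervals exclude 0, that of Hes1 narrowly. The orange bars of Dlk1, Klf2 and Klf3 cross 0.

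Which array was extreme differed among the 10 genes. KO replicate 3 was the highest array for 4 of them and the lowest for 2, so it was an end of the range in 60.0% of the 10, and in 52.1% of all genes. WT replicate 2 was the highest array for 2 and the lowest for 3, against 11.7% and 21.4% of all genes. Foxo1, Hes1, Klf3 and Nr2f2 had neither their highest nor lowest value in KO replicate 3.

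For the members that ranged over more than 1 unit, Gata3 and Klf2, the genes with the most similar profile over the 6 arrays were found by root mean square difference after centring. For Gata3 they were Slco2a1, a prostaglandin transporter, at 0.20, Cdh11, a mesenchymal cadherin, at 0.27, and Mboat1, a lysophospholipid acyltransferase, at 0.27. Slco2a1 was 8.95 in WT replicate 2 and 7.06 in KO replicate 3, the same extreme arrays as Gata3. For Klf2 they were Tbrg3 (0.06), the immediate early gene Ier5 (0.08) and Eomes, a T-box factor of cytotoxic lymphocytes (0.08). All 3 were lowest in KO replicate 3, with Eomes at 5.95 there and 6.60 to 7.09 elsewhere.

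In the wider families of the 10 factors more differences were positive than negative. The groups were apart with KO above in 8 of 33 measured paralogs (7.96% of all genes). Of the 33, 24 were positive with a median of 0.09 (53.0% of all genes were positive). With an unadjusted p under 0.05 in limma, 6 were higher and 0 lower (4.99% and 2.48% of all genes). Without KO replicate 3 these counts were 23 positive, 4 higher and 0 lower, against 48.5%, 3.10% and 1.90% of all genes. With quantile normalization or a common median, 26 were positive. In the KLF family, zinc finger factors of which some promote and some repress adipogenesis, 12 of 17 genes were positive. Klf4, an early activator of Cebpb, was 8.72, 8.37 and 8.36 in KO and 8.22, 7.99 and 8.07 in WT, a difference of 0.39 (SE 0.13) without overlap. Klf5, a proadipogenic factor, differed by -0.01. In the FOXO family Foxo1 was the one gene with a negative difference. Foxo6 was 6.496, 6.73 and 6.43 in KO and 6.39, 6.12 and 6.10 in WT, a difference of 0.35 (SE 0.13), Foxo4 differed by 0.14 and Foxo3 by 0.03. Whether Foxo1 differs from its paralogs in response was not tested. None of the 33 passed over all genes (smallest adjusted p 0.622 in limma).

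**Figure D4:**
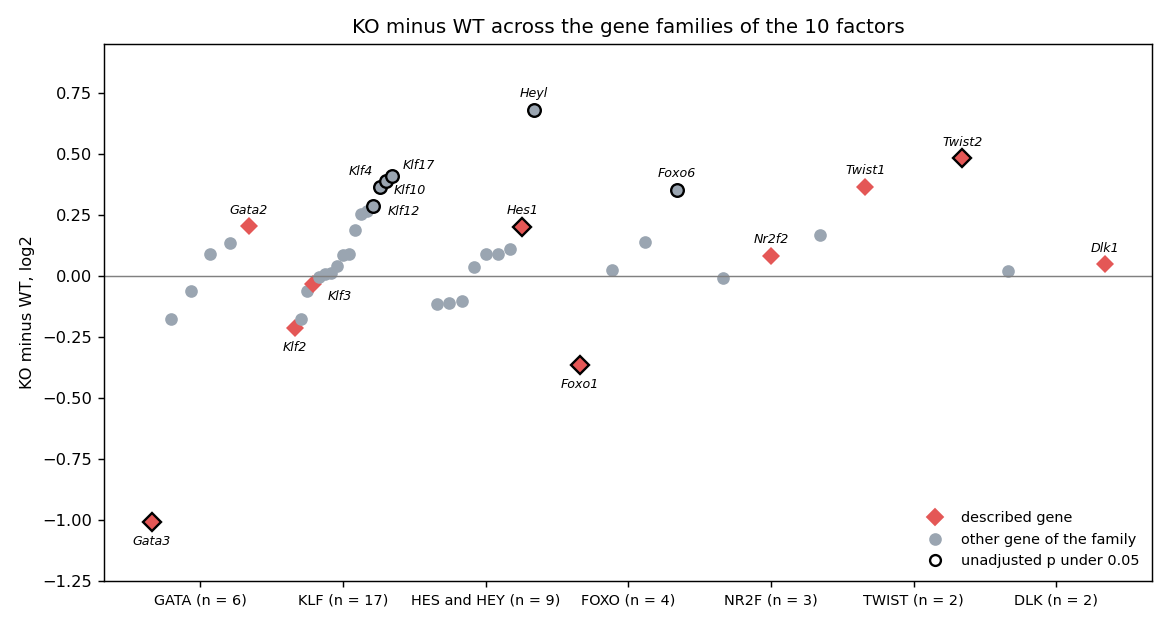
KO minus WT (log2) for each gene of the families, with the described genes as red diamonds, other genes as grey circles and a black outline for an unadjusted limma p under 0.05. Described and outlined genes are labelled. Foxo1 lies at -0.36 below its paralogs at 0.03 to 0.35, and Gata3 at -1.01 lies below all others.

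The programme these factors act on was set beside them. Of 24 measured adipogenic factors and early fat cell genes, 18 were positive with a median of 0.11 (53.0% of all genes were positive). With an unadjusted p under 0.05 in limma, 2 were higher and 0 lower, against 4.99% and 2.48% of all genes. The 2 higher genes were Ebf2 (difference 0.65, SE 0.15), a factor of beige and brown precursors, and Ebf3 (0.45, SE 0.14). Both lay above WT on every KO array. Pparg, which Gata2, Gata3, Klf2 and Nr2f2 repress, was 11.61, 11.71 and 12.05 in KO and 11.27, 11.81 and 11.11 in WT. The groups overlapped. The array with the highest Gata3, WT replicate 2, had the highest Pparg in WT. The array with the lowest Gata3, KO replicate 3, had the highest Pparg of the 6 arrays. A relation between Gata3 and Pparg was not tested.

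Other repressors of adipogenesis were split. Of 24 measured, 13 were positive and 11 negative with a median of 0.03 (53.0% of all genes were positive). With an unadjusted p under 0.05 in limma, 0 were lower (2.48% of all genes) and 1 was higher (4.99%). That gene was Bhlhe40, a repressor that also belongs to the clock, at 7.74, 7.81 and 8.68 in KO and 7.07, 7.64 and 7.14 in WT. Its difference was 0.79, and 0.49 without KO replicate 3. Zfp521, which binds and blocks Ebf factors, differed by 0.05 with overlap.

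Markers of adipocyte precursors overlapped between the groups as a list. Of 24 measured, 18 were positive (53.0% of all genes were) with a median of 0.08. With an unadjusted p under 0.05 in limma, 2 were higher and 2 lower, against 4.99% and 2.48% of all genes. The list's level was -0.08 to 0.21 in KO and -0.19 to 0.15 in WT. The higher genes were Anxa3, an annexin (0.45, SE 0.14), and Prrx1, a homeobox factor of mesenchymal progenitors (0.40, SE 0.16). The lower ones were Thy1 (-0.52, SE 0.21) and Icam1 (-0.55, SE 0.23), which T and other immune cells also carry. Without KO replicate 3, Thy1 differed by -0.27 and Icam1 by -0.33. Pdgfra, the usual marker of fat progenitors, was 9.41, 8.86 and 9.16 in KO and 9.03, 9.14 and 9.04 in WT, with the WT values inside the KO range. Among cofactors of the 10 genes 13 of 22 were positive. With an unadjusted p under 0.05 in limma, 2 were higher (Akt2 and Id4) and 1 lower (Ywhaz), against 4.99% and 2.48% of all genes. Without KO replicate 3, 11 of the 22 were positive, 0 higher and 0 lower, against 48.5%, 3.10% and 1.90% of all genes. With a common median 4 were higher, against 5.59% of all genes.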

How the data were processed

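The authors deposited log2 values of 34760 probe sets for 6 arrays. Per the submitters' processing notes, RMA, affy and limma were used, and their versions, options and annotation build are not given in the sources used here. RMA makes the arrays' distributions alike, which hides a shift common to most genes. With 3 arrays per group, their number limits the precision. Groups and replicate numbers came from the titles, and the replicates are mice.

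Platform annotation gave 21640 probe sets 1 symbol, 1321 several and 11799 none. A gene was its probe set with the highest mean. All 19937 genes were fitted with limma 3.58.1 in R 4.3.3 (lmFit, eBayes, two-sided, no filter), with Benjamini-Hochberg adjustment over all genes at 0.05. SE and 95% intervals are limma's. An exact permutation test of 3 against 3 cannot go below 0.1. The fit was tested on simulated data with independent noise and no array standing apart. At an adjusted p under 0.05, limma recovered 8.2% of log2 changes of 0.5 and 73.7% of changes of 1. Changes of the size seen in Foxo1 or Twist2 would therefore mostly not pass. A list's level is the mean of its centred genes, without the 10 described genes.

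The 10 genes and all lists were chosen with earlier results of these data known. Named are the 10 genes, Atf7, of each list at most the 4 genes of smallest p, the 3 most similar profiles for genes ranging over 1 unit, and a few genes added for their known role after values were seen (Adam10, Adipoq, Fabp4, Dlk2, Foxo3, Foxo4, Klf5, Notch3, Pdgfra, Zfp521, Zfpm1 and Zfpm2). Alternatives were other normalizations, a filter on dim genes, other probe set choices, another variance model, the replicate block, marker scores as covariates and leaving out arrays.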

Additional observations from a re-analysis of the deposited data

How the results depend on the processing

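Over 17 alternatives the differences of the 10 genes kept their direction in 160 of 169 values, and none passed adjustment over all genes (smallest adjusted p 0.174 in limma). Hes1 was below the median gene and so has no value under the filter on dim genes. Foxo1, Twist2, Gata3, Gata2, Hes1, Twist1 and Nr2f2 kept their direction throughout, and 3 genes turned. Dlk1 was -0.0029 with the muscle score and -0.011 with the epithelial score as a covariate, and -0.055 without WT replicate 2 and KO replicate 3. Klf2 was 0.24 with the lymphocyte score and 0.045 without both arrays, and Klf3 was 0.021 with the lymphocyte score. Without each array in turn Dlk1 ran from -0.017 to 0.10, Klf2 from -0.43 to 0.10, Klf3 from -0.090 to 0.046, Ier5 from -0.43 to 0.031 and Eomes from -0.54 to 0.026. Of the other named genes, the profiles similar to Klf2 turned with the lymphocyte score, with Tbrg3 at 0.12, Ier5 at 0.16 and Eomes at 0.18. Ier5 and Eomes also turned without KO replicate 3.

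At an unadjusted p under 0.05, 1 of the 10 genes was higher with the dim-gene filter, with all probe sets fitted, with the replicate block, with any of the 3 scores as a covariate, and without both arrays. It was 1 to 2 without each array in turn. The number lower was 1 with the lymphocyte or epithelial score, and 1 to 2 without each array in turn. Over all genes the share higher ran from 2.27% to 10.4% and the share lower from 0.963% to 8.47% across these settings. Over the whole table, features called lower numbered 1 with the mean of all probe sets (Atf7, adjusted p 0.0328 in limma) and 2 with all probe sets fitted (Atf7 probe set 10433032 and 10341037, which has no gene listed), against 0. The epithelial score and the removal of both arrays were chosen after seeing the data. The titles do not say whether same-numbered mice were paired. Deviations of same-numbered arrays correlated at -0.14, -0.08 and -0.04 across genes, and those of differently numbered arrays at 0.0001 to 0.095. With 3 arrays per group, these correlations cannot decide whether the mice were paired. With the replicate block the unadjusted p of Gata3 was 0.00237 in limma.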
